A study of Mus musculus with 3 samples.

Results

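The NF-kB pathway was examined at 10 genes in regulatory T cells (Treg cells), a Foxp3-dependent class of CD4 T cells that holds immune responses in check. The genes were taken by name, as parts of 1 pathway. They are the subunit genes Nfkb1, Nfkb2, Rela, Relb and Rel, the inhibitor gene Nfkbia, the adaptor genes Traf1, Traf2 and Traf3, and the kinase gene Map3k14. All 10 were found among the 22457 genes of the count tables. The tables come from poly(A) RNA of primary Treg cells of male adult mouse, 4 months old. The labels name no treatment, genotype, strain, number of animals or sorting gate. The 3 libraries carry the technical replicate numbers 1, 2 and 3 of 1 biological replicate and form 1 group, so no condition was compared and the SD below is the spread between libraries, not between animals.

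NF-kB factors are dimers of proteins with a shared Rel homology region. RelA (from Rela), c-Rel (from Rel) and RelB (from Relb) can activate transcription, while Nfkb1 and Nfkb2 encode the precursors p105 and p100, which are processed to the DNA-binding subunits p50 and p52. In the canonical route, the IKK kinase complex marks IkB-alpha, the product of Nfkbia, for degradation, which frees RelA and c-Rel dimers to enter the nucleus. In the alternative route, receptors of the TNF receptor superfamily recruit a complex of TRAF2, TRAF3 and the cIAP ligases that otherwise keeps the kinase NIK (from Map3k14) low. NIK then builds up and p100 is processed, which yields p52 with RelB. In Treg cells, c-Rel is known for its part in Foxp3 induction in the thymus, and RelA for the maintenance of activated Treg cells. Counts of RNA do not show processing, degradation or nuclear entry of these proteins.

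Several NF-kB genes are known targets of NF-kB themselves, so promoter sequences of the members are shown first. RefSeq promoter windows, from 250 bases before to 50 bases after a transcription start on GRCm38.p6, were held for 8 of the 10 genes, and Nfkb1 and Relb had no entry. The kappaB consensus was taken as GGG, A or G, any base, A or T, 2 bases each C or T, then CC. Searched on both strands, it was present in windows of 4 of these 8 genes, Nfkb2, Rel, Nfkbia and Traf3. Among the 27025 genes with a window, 5.14% held it. Of all 32851 windows, 4.51% held it. A rarer pattern, GGG followed by any 2 bases and TTTCC, was present for 5 of the 8 genes (the same 4 and Traf2). Of genes with a window, 1.90% held it. A looser pattern, GGG followed by any 5 bases and CC, was present for 7 of the 8 and in 53.5% of genes. These patterns overlap, so 1 site can match more than 1 of them, and a match is a description of letters and not a bound site. Windows of the members had a median GC content of 65.3%, against 52.7% over all windows, and GGG and CC runs are more likely in such sequence. The stretches that hold the consensus upstream of the start of Rel, Nfkbia and Traf3 follow, 5′ to 3′ on the gene's strand, with consensus matches in capitals.
Rel promoter: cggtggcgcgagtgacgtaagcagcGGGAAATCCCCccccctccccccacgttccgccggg
Nfkbia promoter: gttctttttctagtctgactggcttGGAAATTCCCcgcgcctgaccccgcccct
Traf3 promoter: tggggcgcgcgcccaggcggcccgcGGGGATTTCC
The Rel stretch lies at chr11:23771026-23771086 on the minus strand, and its capitals are 2 overlapping matches, 1 on each strand. The Nfkbia stretch lies at chr12:55492648-55492701 on the minus strand and ends at the base just before the start. Its match is on the opposite strand, where it reads GGGAATTTCC. The Traf3 stretch lies at chr12:111166335-111166369 on the plus strand, and its match also ends at the base just before the start. For Nfkb2, which had 3 windows on chromosome 19, the window of the most upstream start held GGGAATTCCC at 46304698 to 46304707 and GGGGCTTTCC at 46304726 to 46304735. These lie within the first exon of an annotated Nfkb2 transcript that starts further upstream. Traf1 had no match to any of the 3 patterns in its window, which says nothing of sites elsewhere.

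The libraries held 3316275, 3079004 and 2782259 counts, numbered 1 to 3 by their technical replicate label. Levels are given as counts scaled to a library total of 1000000 (CPM), and genes that reached 1 CPM in all libraries are referred to as detected (10611 genes). Foxp3 had 448, 447 and 407 counts, Il2ra 1061, 894 and 936, and Cd4 1892, 1920 and 1501, while Cd8a, of CD8 T cells, had 0, 0 and 1. Of 16 B cell markers, 13 were detected and 14 of the 15 tested differed between the libraries by the chi-square test used for the members below, which 22.7% of all genes passed. Of these, Ighm and Cd74 lost their calls against genes of like counts per coding base, a test described below (chi-square test, adjusted p = 0.967 and 0.375). Over the 14 markers with under 0.5 counts per coding base, the summed level was 125, 367 and 342 CPM, lowest in library 1 (all 16 summed to 1473, 1842 and 1939 CPM). Ms4a1 (CD20) had 8, 68 and 58 counts, Cd79a 12, 69 and 72, and H2-Ab1 157, 490 and 293. H2-Ab1 alone gave 47.3, 159 and 105 CPM of the sum over the 14 markers. Of 15 monocyte and macrophage markers 5 were detected, with a sum of 65.4, 157 and 62.2 CPM. Itgam alone gave 39.5, 58.8 and 19.4 CPM of this sum. Of 10 dendritic cell markers 3 were detected, with a sum of 97.4, 136 and 105 CPM and Clec9a at 0 throughout. Most of the dendritic cell sum came from Bst2 (73.0, 96.8 and 74.4 CPM) and Ccr9 (18.1, 14.9 and 18.0 CPM). B cells, monocytes and dendritic cells also use the NF-kB genes, and in bulk RNA a change in the number of such cells and a change in RNA per cell cannot be told apart.

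All 10 members were detected, with 129 to 1858 counts per library. Levels of different genes are compared only after division by coding length, as CPM per kilobase of coding sequence, called the length-scaled level. The lengths are the longest annotated coding sequence of each gene. By this measure the members spanned a 22.5-fold range, from 28.6 for Traf3 to 642 for Nfkbia, whose counts did not follow the library totals, so that the upper end is given as counted. Their median was 74.7, against 31.5 over the 10432 detected protein-coding genes, and 8 of the 10 lay above that median. Nfkbia and Traf1 lay in the highest 10% of those genes, which began at 202 CPM per kilobase. Scaled by exon length instead, Traf1 lost this place and the 2 were Nfkbia and Rela, and with no detection filter 4 members held it.

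**Figure D1:**
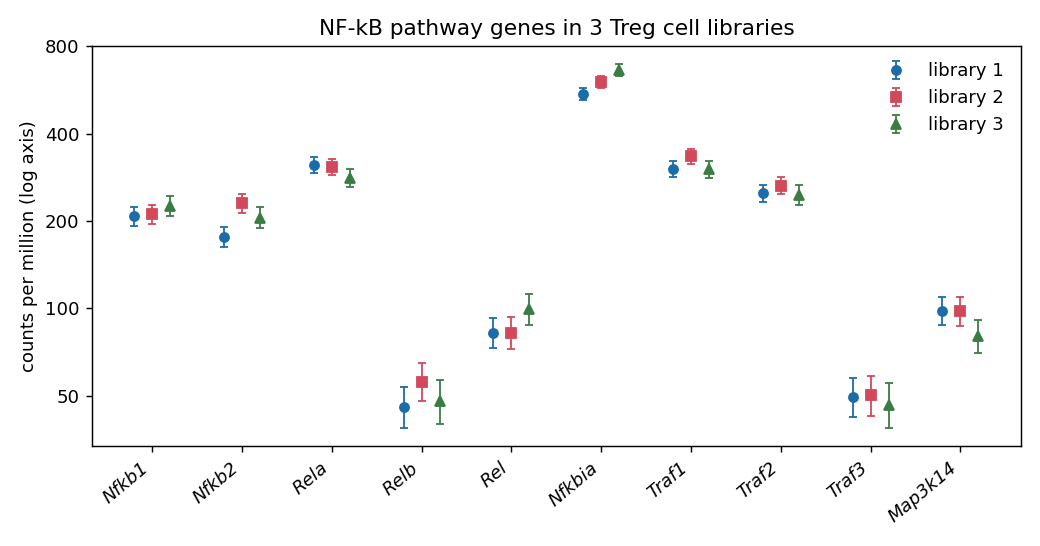
CPM (log axis) of the 10 genes in libraries 1, 2 and 3, with exact 95% Poisson intervals as bars, which cover counting error only. Nfkbia stands highest in every library (547 to 663 CPM) and Traf3 and Relb lowest (45.5 to 55.9 CPM), and the Nfkb2 intervals of libraries 1 and 2 do not overlap.

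Among the activating subunits, Rela was the most abundant. Rela (chromosome 19, 5637483 to 5648130, plus strand, 1647 coding bases), which encodes RelA (p65), the main activating subunit of the canonical route, had 311, 308 and 281 CPM in libraries 1, 2 and 3, or 1033, 948 and 781 counts. The library values lay within 1.11-fold of each other, with a mean of 300.03 ± 16.8 CPM (SD, n = 3 libraries), and library 3 was the lowest. Rel (chromosome 11, 23736847 to 23770970, minus strand, 1764 coding bases), which encodes c-Rel, had 273, 253 and 276 counts, or 82.3, 82.2 and 99.2 CPM (mean 87.9 ± 9.79). Library 3 stood above the other 2, which differed by less than their counting error. Relb (chromosome 7, 19606217 to 19629438, minus strand, 1674 coding bases), which encodes RelB of the alternative route, had 151, 172 and 133 counts, or 45.5, 55.9 and 47.8 CPM (mean 49.7 ± 5.43). Its Poisson intervals overlapped in all 3 libraries (38.6 to 53.4, 47.8 to 64.9 and 40.02 to 56.7 CPM).

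The precursor genes lay between Rela and Rel. Nfkb1 (chromosome 3, 135584655 to 135691547, minus strand, 2913 coding bases), the gene of p105 and p50, had 690, 648 and 628 counts, or 208, 210 and 226 CPM (mean 215 ± 9.58). These values differed by at most 1.08-fold. Nfkb2 (chromosome 19, 46304320 to 46312385, plus strand, 2697 coding bases), the gene of p100 and p52, had 585, 709 and 571 counts, or 176, 230 and 205 CPM (mean 204 ± 27.0). Library 2 was the highest and library 1 the lowest, and the coefficient of variation over libraries, 13.2%, was the largest of the 10 genes, against 4.01% from counting alone. The Nfkb2 count is less certain than the others, because 18.1% of its exon bases overlap the antisense genes Psd and AC114539.1. Of the 31-base words of its coding transcripts, 18.03% also occur in transcripts of other genes. That search took both strands, so these words can come from the same antisense overlap. Whether they do was not checked. Strand use in counting is not given in the sources used here, so reads of Nfkb2 and an antisense partner cannot be told apart. Psd itself had 47, 29 and 35 counts, and AC114539.1 was not found among the counted genes.

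Per length, Rela stood above both precursor genes, these above Rel, and Rel above Relb in each of the 3 libraries. Rela took 44.3 ± 2.82% of the summed length-scaled level of the 5 subunits, Nfkb2 18.4 ± 1.89%, Nfkb1 17.9 ± 0.970%, Rel 12.1 ± 1.45% and Relb 7.22 ± 0.566%. The log2 ratio of Rel to Rela was -2.02, -2.00 and -1.60 in libraries 1, 2 and 3 (mean -1.87 ± 0.24), a mean of 3.67-fold lower. Relb was lower than Rela by 6.15-fold (mean log2 ratio -2.62 ± 0.16). The precursor genes did not differ beyond their spread, with a log2 ratio of Nfkb2 to Nfkb1 of -0.13, 0.24 and -0.03 (mean 0.03 ± 0.19). Over exon length instead of coding length, Nfkb2 stood above Nfkb1 by 1.31 on the log2 scale, and the ratio of Rel to Rela was -3.06. Relb then had a higher mean than Rel (12.8 ± 1.40 against 11.8 ± 1.31 CPM per kilobase of exon), with ranges that overlapped.

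The inhibitor gene Nfkbia (chromosome 12, 55489410 to 55492647, minus strand, 942 coding bases) had the highest level of the 10. Nfkbia encodes IkB-alpha, which holds RelA and c-Rel dimers in the cytoplasm and is resynthesised after NF-kB activation. It had 1814, 1858 and 1846 counts, or 547, 603 and 663 CPM (mean 605 ± 58.3), and its length-scaled level of 642 ± 61.8 exceeded that of 99.5% of detected coding genes. The counts lay within 1.02-fold of each other although the library totals differed by 1.19-fold, so its CPM was highest in library 3, which had the lowest total. Nfkbia was the only member with a mean above 1.8 counts per coding base (1.95). Of the 97 genes at that density with 30 or more summed counts, 72 (74.2%) had counts within 5% of each other in all 3 libraries, against 1.35% of 6583 genes under 0.2. Why such counts did not follow the totals was not tested, nor whether they understate the level, so levels and folds of Nfkbia are those of the counts as deposited.

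**Figure D2:**
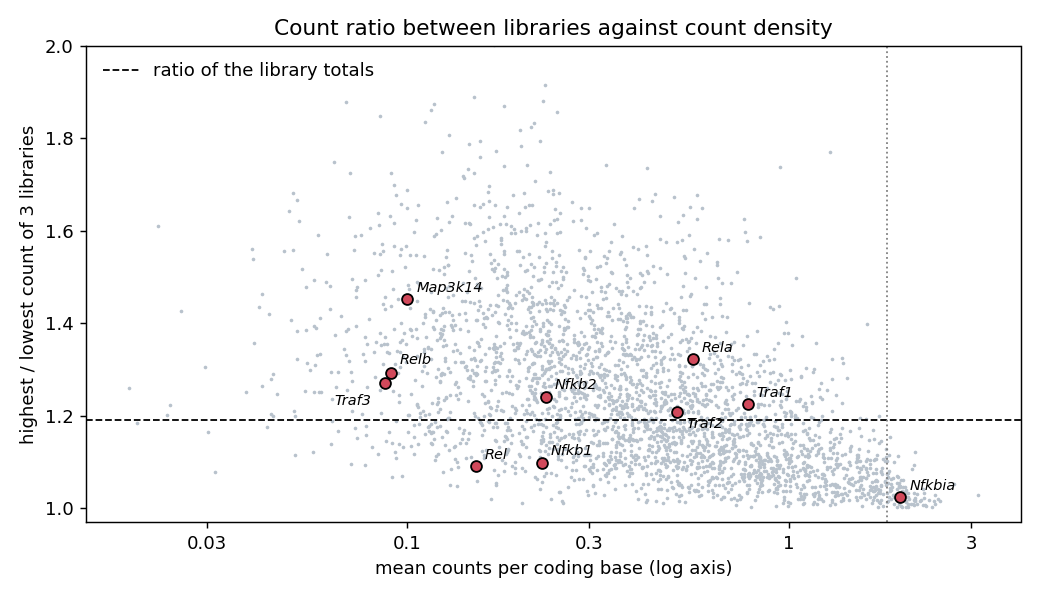
Ratio of the highest to the lowest count of the 3 libraries against mean counts per coding base (log axis), for 3068 genes with a mean of 300 or more counts (grey, 5 of them above the axis) and for the 10 members whatever their count (red). The dashed line is the 1.19-fold ratio of the library totals and the dotted line marks 1.8 counts per coding base. Nfkbia sits at 1.02 among the genes right of that line, while Map3k14 is the highest member at 1.45.

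As counted, and with that limit, Nfkbia was 1.56-fold higher per length than the 5 subunits summed (mean log2 ratio 0.64 ± 0.13, positive in 3 of 3 libraries). It also led its own family, with 62.4 ± 1.46% of the summed length-scaled level of 6 IkB genes. Nfkbib, which encodes IkB-beta, followed at 14.8 ± 0.926% and Nfkbie, which encodes IkB-epsilon, at 8.001 ± 0.778%. The nuclear IkB genes were lower, with 6.22 ± 0.428% for Nfkbid, 6.11 ± 0.459% for Nfkbiz and 2.48 ± 0.565% for Bcl3. Bcl3, whose product binds p50 and p52 homodimers, had 105, 131 and 78 counts.

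**Figure D3:**
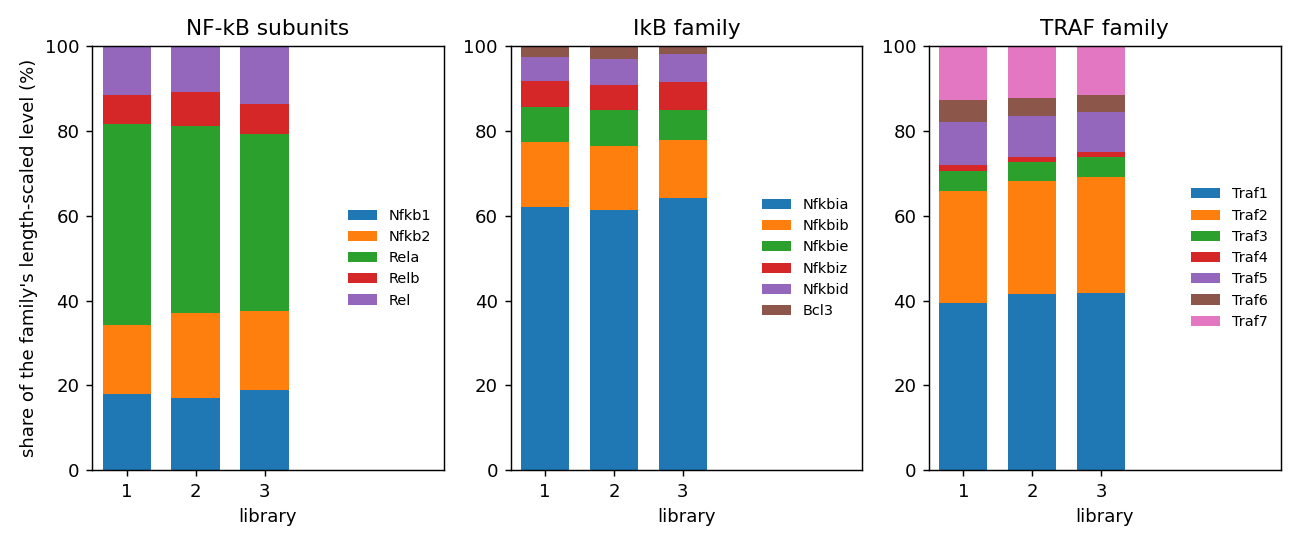
Share of each family's summed length-scaled level (percent, bars summing to 100 in each of libraries 1, 2 and 3) for the 5 NF-kB subunit genes, 6 IkB genes and 7 TRAF genes. Rela takes 41.7 to 47.3% of the subunits, Nfkbia 61.2 to 64.1% of the IkB genes and Traf1 39.5 to 41.7% of the TRAF genes.

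The TRAF genes were led by Traf1. TRAF1 is the adaptor that lacks a RING domain, pairs with TRAF2 at receptors such as 4-1BB, and is encoded by a known NF-kB target gene. Traf1 (chromosome 2, 34941750 to 34961772, minus strand, 1227 coding bases) had 1000, 1027 and 838 counts, or 302, 334 and 301 CPM (mean 312 ± 18.6), with library 2 the highest. Traf2 (chromosome 2, 25517982 to 25546940, minus strand, 1524 coding bases), the RING adaptor that brings the cIAP ligases to the receptor, had 827, 815 and 684 counts, or 249, 265 and 246 CPM (mean 253 ± 10.02). These Traf2 values were the least variable of the members, at a coefficient of variation of 3.96%. Traf3 (chromosome 12, 111166370 to 111267153, plus strand, 1701 coding bases), which ties NIK to that complex, had 164, 154 and 129 counts, or 49.5, 50.02 and 46.4 CPM (mean 48.6 ± 1.97). All 3 libraries gave Traf3 a similar level, and its mean was the lowest of the members.

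Within the family of 7 TRAF genes, all detected, Traf1 took 41.0 ± 1.25% of the summed length-scaled level and Traf2 26.8 ± 0.567%. Traf7 had 12.2 ± 0.538%, Traf5 9.68 ± 0.504%, Traf3 4.603 ± 0.0887%, Traf6 4.54 ± 0.596% and Traf4 1.28 ± 0.107%. Traf1 was higher than Traf2 by 0.59, 0.65 and 0.61 on the log2 scale in libraries 1, 2 and 3, and Traf3 was 5.82-fold lower than Traf2 (mean log2 ratio -2.54 ± 0.04). The direction of Traf1 against Traf2 depends on the length used, since over the union of all annotated exons (8819 bases for Traf1, 5101 for Traf2) the mean log2 ratio was -0.49. Over 101 genes with counts within 3% in all libraries and a mean of 500 or more counts, counts per coding base had an interquartile range of 0.81 on the log2 scale and counts per exon base 1.43. These genes were chosen after the counts had been seen. Their median was 1.68 counts per coding base, above Traf1 (0.778) and Traf2 (0.509). They therefore do not decide which length suits Traf1 and Traf2.

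Map3k14 (chromosome 11, 103219762 to 103267472, minus strand, 2826 coding bases) encodes NIK, the kinase that starts the alternative route and is held low mainly at the protein level. It had 324, 301 and 223 counts, or 97.7, 97.8 and 80.2 CPM (mean 91.9 ± 10.1), with library 3 below the other 2. Per length its level, 32.5 ± 3.59, was close to that of Traf3, with a log2 ratio of Map3k14 to Traf3 of 0.25, 0.23 and 0.06. The genes of the cIAP ligases in the same complex were higher, with Birc2 at 168 ± 17.7 and Birc3 at 114 ± 5.07. Over exon length the ratio of Map3k14 to Traf3 was 1.08 on the log2 scale. Of the Map3k14 exon bases, 2.06% overlap the gene 1700028N14Rik on the same strand, which was not found among the counted genes.

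In length-scaled order the 10 genes stood as Nfkbia (642), Traf1 (254), Rela (182), Traf2 (166), Nfkb2 (75.6), Nfkb1 (73.7), Rel (49.8), Map3k14 (32.5), Relb (29.7) and Traf3 (28.6). Among neighbours, the library ranges of Rela and Traf2, of Nfkb2 and Nfkb1, of Map3k14 and Relb and of Relb and Traf3 overlapped. Within each library Rela still stood above Traf2 (189 against 164, 187 against 174 and 170 against 161 in libraries 1, 2 and 3). The order within each of the remaining overlapping pairs turned between libraries. The other 5 neighbouring pairs had ranges that did not overlap, with mean ratios from 1.40 (Traf1 to Rela) to 2.52 (Nfkbia to Traf1). This order holds for coding length. By exon length it was Nfkbia (376 CPM per kilobase of exon), Rela (97.7), Traf2 (49.7), Nfkb2 (44.5), Traf1 (35.4), Nfkb1 (17.8), Map3k14 (14.03), Relb (12.8), Rel (11.8) and Traf3 (6.61). Traf1 thus stood 2.76-fold below Rela, and Map3k14 stood 1.19-fold above Rel. By CPM without length, Traf1 (312 CPM) and Rela (300.03 CPM) lay closer together.

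**Figure D4:**
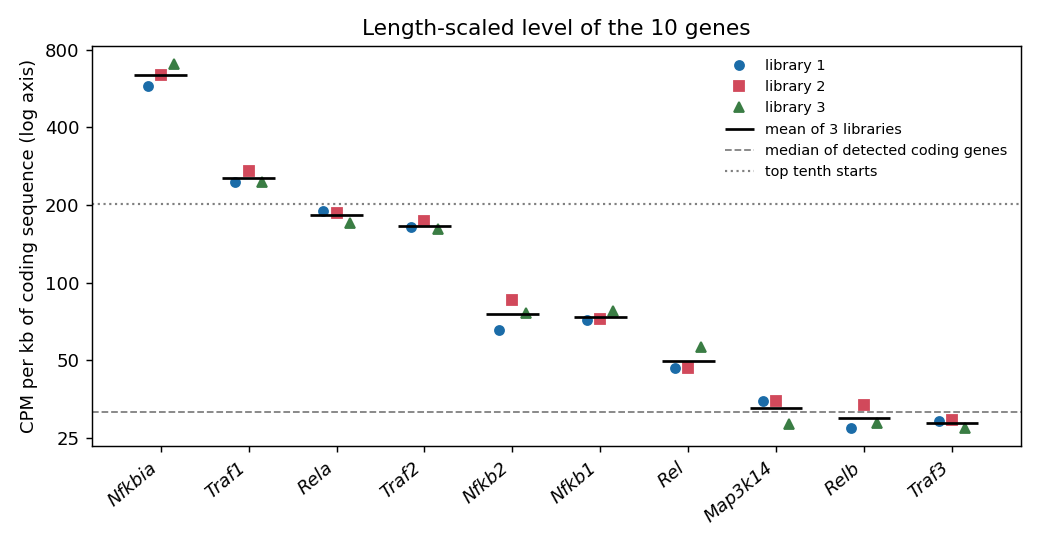
Length-scaled level (CPM per kilobase of coding sequence, log axis) of the 10 genes in each library, ordered by the mean (black line). The dashed line is the median of 10432 detected coding genes (31.5) and the dotted line the start of the highest 10% (202). Nfkbia and Traf1 lie above the dotted line in all 3 libraries, and Relb, Traf3 and Map3k14 lie around the dashed line.

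The rest of the pathway was detected nearly in full. All 5 genes of the IKK and IKK-related kinases were present, with a median length-scaled level of 102. Ikbkb, which encodes the catalytic subunit IKK-beta, was highest at 124 ± 15.9, followed by Ikbke at 108 ± 5.83 and Tbk1 at 102 ± 6.96. Chuk, for IKK-alpha, had 67.7 ± 2.91, and the scaffold gene Ikbkg (NEMO) was lowest at 47.3 ± 6.35. Of the 10 receptor-proximal and TAK1 adaptors, 9 were detected (median 33.4). Tank, a TRAF-binding protein, had 354 ± 17.4, Traf3ip3 242 ± 8.87 and Tradd, the adaptor of TNF receptor 1, 152 ± 10.02. Tifa, with 0, 3 and 2 counts, was not detected.

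The linear ubiquitin ligase genes Sharpin, Rbck1 and Rnf31 had 140 ± 4.31, 128 ± 18.2 and 55.6 ± 6.08. Among 10 deubiquitinases and other brakes, all detected (median 46.2), the selective autophagy receptor and A20 partner gene Tax1bp1 led at 288 ± 11.6. Cyld, which removes K63 and linear ubiquitin chains, had 157 ± 13.0 and Tnip1 142 ± 6.06, while Tnfaip3, which encodes A20, had 62.5 ± 3.69 and Rnf11 was lowest at 9.37 ± 4.25.

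Receptors that signal through TRAF proteins included genes whose length-scaled levels, as counted, lay near that of Nfkbia. Of 14, 12 were detected (median 52.0), with Tnfrsf4 (OX40) at 672 ± 59.5, Tnfrsf18 (GITR) at 624 ± 53.1 and Tnfrsf9 (4-1BB) at 457 ± 21.3, and Tnfrsf11a (RANK), with 0, 0 and 1 counts, was lowest. Tnfrsf4, with 1671, 1666 and 1670 counts, and Tnfrsf18, with 1783, 1809 and 1774, lay above 1.8 counts per coding base, as Nfkbia did, so the order of these 3 genes is not read. Of 24 known NF-kB target genes, 22 were detected (median 75.6), a list that holds 4 of the members. After Nfkbia, Il2ra (the IL-2 receptor alpha chain) had 392 ± 29.03 and Irf1 355 ± 10.7. Ccl22 had 0, 1 and 0 counts and Il6 none.

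**Figure D5:**
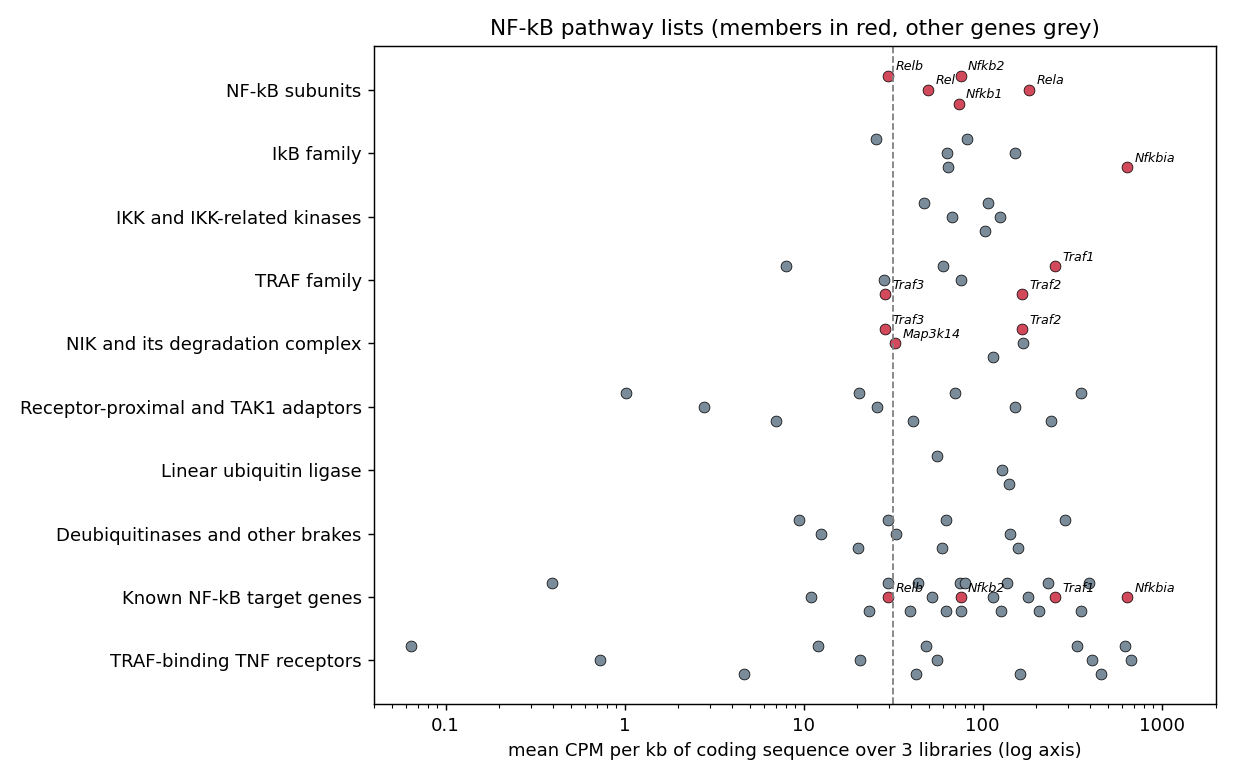
Mean length-scaled level (log axis) of the genes of 10 NF-kB pathway lists over the 3 libraries, with members in red and other genes in grey, and the median of detected coding genes as a dashed line. Points are spread vertically within a list for legibility, and Il6, with no count, is not drawn. Nfkbia stands highest in its family and Traf1 in its own, while Relb, Traf3 and Map3k14 lie near the dashed line.

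Differences between the libraries were tested by a chi-square test of each gene's 3 counts against the library totals, over the 10043 genes whose summed count reached 30. P-values were adjusted by Benjamini-Hochberg, and 0.05 was the threshold. The test compares libraries of 1 biological sample and allows for Poisson noise only. Of the 10 members, 2 passed, Nfkb2 (chi-square test, adjusted p = 0.000212) and Nfkbia (chi-square test, adjusted p = 1.49e-06), against 22.7% of all genes tested, which is near the members' share. Nfkb2 was 1.31-fold higher in library 2 than in library 1, and Nfkbia was 1.21-fold higher in library 3 than in library 1. For Nfkbia the call was lost when its counts were set against the summed counts of genes of the same density (chi-square test, adjusted p = 0.526), a test that 20.7% of genes passed. Nfkb2 kept its call there (chi-square test, adjusted p = 0.000181). Its call was lost without library 1 (chi-square test, adjusted p = 0.166), where 13.1% of genes passed, and without library 2 (chi-square test, adjusted p = 0.0606), where 15.3% did. Without library 3, where 9.43% of genes passed, both members kept their calls. Both genes were lowest in library 1, which also held the fewest B cell marker counts (125 against 367 and 342 CPM). Nfkb2 was highest in library 2. So were the summed monocyte and macrophage markers (65.4, 157 and 62.2 CPM) and dendritic cell markers (97.4, 136 and 105 CPM). The dendritic cell sum was mostly Bst2, and most of the monocyte and macrophage sum in library 1 was Itgam. Nfkbia had near-equal counts in all libraries, and library 1 had the highest total. Whether the marker sums follow the numbers of such cells was not tested, nor was the part of any of these cells in the differences.

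The other 8 members did not pass, with adjusted p-values from 0.111 for Traf1 to 0.866 for Traf3 by the chi-square test. Before adjustment, 5 of the 10 had a p under 0.05, namely Nfkb2, Nfkbia, Rel, Traf1 and Map3k14. Deeper genes pass this test more often, from 12.0% of genes with 30 to 200 summed counts to 67.2% of those with 3500 or more. Of the 5 members with 1500 to 3500 summed counts 1 passed, against 38.9% of the genes at that depth, and none of the 4 with 200 to 1500 did. By edgeR's quasi-likelihood test of each library against the other 2, in which the lone library is assumed to vary like the others, no member passed and none had an unadjusted p under 0.05 in any library. That test called 0.395% of 9620 genes in any library (38 genes), a number that moved with its settings. It was 44 when genes were kept at 30 summed counts, and 14 to 163 over 32 combinations of filter, dispersion, robust fitting and scaling, with no member called in any. In the fit with 38 calls, the smallest adjusted p of any member was 0.636, for Map3k14 in library 3. Its log2 difference there was -0.31. Each such fit sets 1 library against 2, so a lack of calls does not show that the members were equal between libraries. The coefficient of variation over libraries had a median of 7.79% over the 10 members (range 3.96 to 13.2%), against 8.06% over the 4990 detected coding genes within the members' range of CPM.

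Elsewhere in the pathway the libraries differed at named genes. None of the 7 TRAF genes passed the chi-square test (3 had an unadjusted p under 0.05), nor did any of the 9 receptor-proximal genes tested (2 had), against 22.7% of all genes. Of the 5 subunit genes 1 passed and of the 6 IkB genes 4. Besides Nfkbia these were Nfkbiz (408, 402 and 442 counts; chi-square test, adjusted p = 0.00455), Nfkbid (253, 284 and 286 counts; chi-square test, adjusted p = 0.0153) and Bcl3 (chi-square test, adjusted p = 0.0342). Nfkbiz and Nfkbid were highest in library 3 and Bcl3 in library 2. Among 5 IKK-related kinases Ikbkb alone passed (1004, 935 and 670 counts; chi-square test, adjusted p = 4.41e-05). In the NIK complex Birc2 alone passed (1096, 837 and 906 counts), and of 10 brakes Cyld, Otud7b and Itch did. Itch lost its call against genes of the same density (chi-square test, adjusted p = 0.113). Rnf31 and Rbck1 of the linear ubiquitin ligase passed, both highest in library 2.

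Of the 22 known NF-kB target genes tested, 13 passed, 1 of them highest in library 1, 5 in library 2 and 7 in library 3. All genes passed at 22.7%. By summed counts, 12.0% passed at 30 to 200, 16.4% at 200 to 600 and 25.6% at 600 to 1500. The share was 38.9% at 1500 to 3500 and 67.2% at 3500 or more. Most of the target genes tested had under 1500 summed counts. Junb, which encodes an AP-1 subunit, had 146, 300 and 251 counts (chi-square test, adjusted p = 1.03e-13), and the lymphotoxin gene Lta had 120, 134 and 161 counts (chi-square test, adjusted p = 0.00356). Both were lowest in library 1, as were Nfkb2 and Nfkbia. Of the 13, 9 were lowest in library 1, namely Nfkb2, Nfkbia, Junb, Lta, Cd83, Myc, Tnf, Cxcl10 and Vcam1. How all genes that passed divide by highest or lowest library was not counted. The division of the target genes is therefore not read as a trait of theirs. Il2ra was lowest in library 2, and Cflar, Irf4 and Ccl4 were lowest in library 3. Ccl4, which encodes a chemokine, had 190, 172 and 99 counts. Of the 12 TNF receptors tested, 5 passed, namely Tnfrsf1b, Tnfrsf4, Tnfrsf13b, Tnfrsf18 and Tnfrsf25, again against 22.7% of all genes. Tnfrsf1b (TNFR2) had 1623, 1691 and 1129 counts (chi-square test, adjusted p = 4.43e-12). Against genes of the same density, Tnfrsf4 (chi-square test, adjusted p = 0.790) and Tnfrsf18 (chi-square test, adjusted p = 0.819) lost their calls, as Nfkbia did.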

How the data were processed

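Each library came with a table of raw counts per gene, which the authors deposited without scaling. Per the notes deposited beside the tables, reads were aligned to mouse assembly mm10 and counted over GENCODE M4 genes. Aligner, counter, strandedness and duplicate treatment were not given in the sources used here. Symbols, coordinates and lengths came from GENCODE M21 on GRCm38, the same assembly (22195 of 22457 identifiers matched a symbol, and 21784 had a coding length), and promoters from RefSeq on GRCm38.p6. Coding length is the longest coding sequence of any transcript. Libraries were grouped by the cell type label and numbered by the technical replicate number.

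The chi-square test used SciPy 1.17.1, the quasi-likelihood test edgeR 4.0.16 with TMM scaling and filterByExpr, and other size factors DESeq2 1.42.0. Both tests were tested on simulated data with known changes. The chi-square test was given Poisson noise, the noise it assumes, and the edgeR test was given noise beyond Poisson. The mean spread of genes in these libraries exceeded Poisson noise at every depth. The simulation therefore does not show how the chi-square test behaves on them. With 1 biological sample, p-values measure the spread between these libraries alone. Poisson intervals cover counting error only. The members and gene lists were chosen with earlier results of these data known. Named were all members, of each pathway list the 3 highest and the lowest gene per length and genes that passed the test, and a fixed set of regulators and markers. Of these lists, 1 is not reported here. Clec9a, Ighm, Cd74, Bst2, Ccr9, Itgam and Psd are named in addition, chosen after their values were seen. AC114539.1 and 1700028N14Rik are named for their overlap with members. Alternatives were other scalings, count minimums of 10 and 1, exon length, a detection level of 5 CPM and leaving out each library.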

Additional observations from a re-analysis of the deposited data

How the results depend on the processing

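The number of members that differed between libraries was 2 with TMM, with DESeq2 size factors and with count minimums of 10 and 1, was 1 against summed counts of the same density and 0 by edgeR's quasi-likelihood test, and ranged from 1 to 2 when a library was left out. The number of all genes that differed was 2277, ranged from 904 to 1466 when a library was left out (fewer libraries give fewer differences to find) and was 38 by edgeR's quasi-likelihood test. Without any detection filter 4 members, Nfkbia, Rela, Traf1 and Traf2, lay in the highest 10% by count density, over a larger set of low genes, and with exon length the 2 were Nfkbia and Rela. With exon length the mean log2 ratios became -3.06 for Rel to Rela, -2.94 for Relb to Rela, 1.31 for Nfkb2 to Nfkb1, -2.91 for Traf3 to Traf2, 1.08 for Map3k14 to Traf3 and 1.02 for Nfkbia to the subunits, and Traf1 to Traf2 reversed to -0.49. The cause of the edgeR and density differences was not tested. Leaving out a library changed the sign of 1 ratio, Nfkb2 to Nfkb1, which was -0.08 without library 2. Over 32 combinations of edgeR filter, dispersion, robust fitting and scaling, chosen after seeing the data, 14 to 163 genes and no member were called. No paired analysis was possible because there is 1 group. Depth left counting errors of 2.33% (Nfkbia) to 8.19% (Traf3) of a library's count.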
